A study of Mus musculus with 4 samples.

Results

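Lubricin and hyaluronan make the joint fluid slippery, and 10 genes that make, cut, bind or cross-link them were followed through all cells of 4 single-cell libraries. The genes were chosen by name: Prg4, Has1, Has2, Has3, Hyal1, Hyal2, Cemip, Tmem2, Cd44 and Tnfaip6. They are 10 of the 32285 genes listed, and 9 of them are listed under these symbols. Tmem2 is listed under its current symbol, Cemip2, and is called Cemip2 here.

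The study compared TNF+ mice, which carry a human TNF transgene and model inflammatory arthritis with pulmonary hypertension, with TNF- littermates that lack it. All mice were female, 4 months old and on a C57BL/6 background. Lung was pooled from 3 to 5 and synovium from 5 to 10 mice per genotype, and live cells were captured after enzymatic digestion, which gave 1 library for each genotype and tissue (4 groups: TNF- or TNF+, from lung or from synovium). The TNF+ mice are 1 transgenic line, the transgene itself was not counted because the reference is murine, and with 1 library per group no difference below could be tested between animals.

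Lubricin, the product of Prg4, is a mucin-like glycoprotein that coats cartilage and is made by lining fibroblasts of the synovium, superficial chondrocytes and tendon cells. Hyaluronan is a long unsulphated sugar chain that the synthases Has1, Has2 and Has3 spin out through the plasma membrane. It is cut by Hyal1 in lysosomes, by Hyal2 at the cell surface, and by the depolymerases Cemip and Cemip2, bound by the receptor Cd44, and loaded with heavy chains of inter-alpha-inhibitor by TSG-6, the product of Tnfaip6.

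The genes lie on 8 mouse chromosomes, given here on GRCm38 with GENCODE vM21 bounds. Prg4 (ENSMUSG00000006014) is at chr1:150449412-150466165. The synthases are unlinked, with Has1 (ENSMUSG00000003665) at chr17:17843323-17855205, Has2 (ENSMUSG00000022367) at chr15:56665627-56694539 and Has3 (ENSMUSG00000031910) at chr8:106870242-106884566. Hyal2 (ENSMUSG00000010047, chr9:107567945-107572779) and Hyal1 (ENSMUSG00000010051, chr9:107576927-107581710) are neighbours on the plus strand. Cemip (ENSMUSG00000052353) is at chr7:83932857-84086502 and Cemip2 (ENSMUSG00000024754) at chr19:21778342-21858360. Cd44 (ENSMUSG00000005087, chr2:102811141-102901665) and Tnfaip6 (ENSMUSG00000053475, chr2:52038009-52056686) share a chromosome.

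Upstream sequence is shown for 3 of the 4 members whose reference promoter stretch holds a letter match, Has1, Tnfaip6 and Cemip, which make, cross-link and cut hyaluronan. The fourth, Cd44, has 1 match to the loose NF-kB pattern 45 bases before the start and is not printed, and Hyal1 has 0 matches. RefSeq promoter stretches on GRCm38.p6 were at hand for 6 of the 10 members, and only bases before both the RefSeq and the GENCODE start were kept. Capitals mark matches to 4 short patterns searched on both strands: TGACGTCA (the cyclic AMP response element, found in 1.55% of 32851 mouse promoters over 250 bases), TGANTCA (the AP-1 pattern, 6.75%), GGG followed by any 5 bases and CC (a loose NF-kB pattern, 45.8%) and TATAAA (12.4%). The Has1 stretch is chr17:17855206-17855438 on the minus strand, the Tnfaip6 stretch is chr2:52037863-52038008 on the plus strand, and the Cemip stretch is chr7:84086506-84086755 on the minus strand. Each is written 5′ to 3′ on the strand of its gene.
Has1: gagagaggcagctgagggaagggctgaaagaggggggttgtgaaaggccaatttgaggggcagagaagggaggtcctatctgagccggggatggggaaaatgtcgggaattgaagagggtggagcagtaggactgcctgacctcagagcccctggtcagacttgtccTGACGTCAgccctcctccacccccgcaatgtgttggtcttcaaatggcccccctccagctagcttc
Tnfaip6: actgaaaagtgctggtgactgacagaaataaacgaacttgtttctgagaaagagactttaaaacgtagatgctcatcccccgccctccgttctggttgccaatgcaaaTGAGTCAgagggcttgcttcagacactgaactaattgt
Cemip: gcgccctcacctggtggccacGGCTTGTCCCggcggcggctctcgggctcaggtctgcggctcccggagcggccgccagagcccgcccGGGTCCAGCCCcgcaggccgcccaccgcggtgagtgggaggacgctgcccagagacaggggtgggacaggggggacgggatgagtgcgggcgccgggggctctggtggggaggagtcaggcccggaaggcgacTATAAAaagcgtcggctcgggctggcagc
The Has1 match is the cyclic AMP element, 83 bases before the RefSeq start. The Tnfaip6 match is TGAGTCA, an AP-1 pattern 142 bases before the start. Cemip has 3 matches to the NF-kB pattern, of which those at 162 and 161 bases overlap each other on opposite strands and the third lies at 229 bases, and TATAAA 29 bases before the start. A letter match is a description of the sequence, and binding was not measured.

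The 4 libraries held between 48454234 and 155989523 UMIs (unique molecular identifiers, 1 per captured RNA molecule). With the study's limits of 200 to 5000 genes and at most 20% mitochondrial UMIs, 6200 TNF- and 3152 TNF+ synovial cells and 6998 TNF- and 9174 TNF+ lung cells were kept. The mitochondrial limit was exceeded by 17.6% of TNF+ synovial barcodes, against 1.41% to 3.78% in the other libraries. Any pair of libraries shared 5 to 21 cell barcodes, at most 0.304% of the smaller one. Mouse Tnf, which is counted apart from the transgene, was at 16.8 CPM (counts per 1000000 UMIs) in the TNF- synovium against 75.1 CPM in the TNF+ synovium, and at 35.2 and 113 CPM in the lungs. Cell classes below are clusters named from marker genes, and each name stands for cells like that class.

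The label of synovial lining was checked first, and no fibroblast cluster of kept cells met the rule set for it. Fibroblasts fell into 4 main clusters, led by Cxcl14 and Smoc2, by Gdf10, by Pi16, and by Saa3 and Mmp13. Of 8 lining markers, Clic5 was at 0 to 2.97 CPM, Htra4 at 1.34 to 6.06 CPM and Tspan15 at 0 to 5.37 CPM in the main fibroblast clusters, and none of the 5 fibroblast clusters met 3 lining markers. The Saa3 Mmp13 cluster came closest, with 2 lining and 0 sublining markers met, and had the highest Htra1 (522 CPM) and Itgb8 (14.8 CPM) of the 4 main fibroblast clusters. Col22a1 and Hbegf, both lining markers, were highest in tendon-like cells, and Cd55 was highest in a fibroblast cluster led by Pi16. In contrast, 3 fibroblast clusters met 6 or 7 sublining markers. The genes are therefore described by cell class, and no cluster of kept cells is called lining. The rule was scored in fibroblast clusters only, so tendon-like cells could not meet it. A marker also had to be in at least 10% of a cluster's cells. Over TNF- and TNF+ fibroblasts Clic5 was in 1.23% and 0.274% and Col22a1 in 0.0649% and 4.66% of cells. Htra4 was in 5.64% and 3.29%, and Tspan15 in 0.940% and 3.29%. Failing the rule therefore does not show that lining cells were absent. The outcome depends on doublets: with them removed, 1 cluster of 145 TNF+ and 0 TNF- kept cells met the lining rule.

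Prg4 was concentrated in barcodes that the upper limit on genes removes from the TNF+ synovium. In that library 346 barcodes with over 5000 genes (8.15% of barcodes, median 37600.5 UMIs) held 37355 of 44500 Prg4 UMIs, or 83.9%, and kept cells held 7031, or 15.8%. In the TNF- synovium 420 such barcodes held 1971 of 15037 Prg4 UMIs, or 13.1%, and kept cells held 86.9%. The removed TNF+ barcodes thus carried most of the lubricin transcripts, whereas in the TNF- synovium the kept cells did. They also held 70.8% of TNF+ Cemip UMIs, 54.2% of Tnfaip6 UMIs and 51.7% of Has2 UMIs, and between 26.6% and 40.6% of those of the other members.

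**Figure D1:**
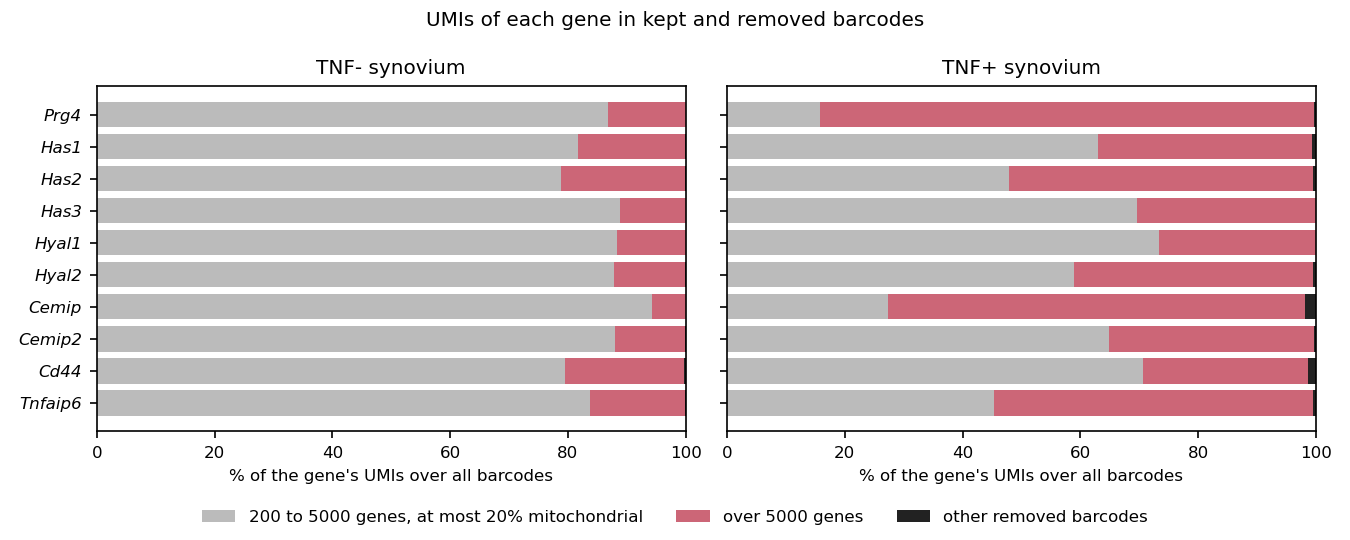
Percent of each gene's UMIs in the TNF- and TNF+ synovium that lay in kept cells, in barcodes over 5000 genes and in other removed barcodes. For Prg4 the part over 5000 genes is 13.1% in the TNF- and 83.9% in the TNF+ library.

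When the barcodes were clustered without any cell limit, 157 removed barcodes and 187 kept ones formed 1 cluster of 344 TNF+ and 0 TNF- cells, the only cluster that met 3 of the 8 lining markers. It held 40592 Prg4 UMIs (91.2% of the TNF+ library), or 118 UMIs per cell and 4033 CPM. It also held 93.6% of Cemip UMIs (100.35 CPM), 86.9% of Tnfaip6 UMIs (2079 CPM), 73.7% of Has2 UMIs and 70.3% of Has1 UMIs. Most transcripts of lubricin, Cemip, TSG-6, Has1 and Has2 thus lay in this cluster, which also made up 344 of the 543 TNF+ fibroblasts. Per transcript the synthases were higher outside it. Has1 was at 1037 CPM in the other 199 TNF+ fibroblasts against 592 CPM over all 543, and Has2 at 92.0 against 67.9 CPM. Prg4 (571 against 3567 CPM), Cemip (0 against 86.8 CPM) and Tnfaip6 (1211 against 1962 CPM) went the other way. Prg4 was at 1020 CPM in the 187 kept barcodes and at 5583 CPM in the 157 removed ones, where it was found in 85.4% of barcodes. Of the 157, Col1a1 (a fibroblast collagen) was detected in 100%, Ptprc (leukocytes) in 5.73% and Pecam1 (endothelium) in 8.28%, while the lining marker Htra1 was in 100%, Hbegf in 83.4%, Cd55 in 39.5% and Clic5 in 2.55%. In kept TNF- and TNF+ fibroblasts Htra1 was in 84.0% and 75.9%, Hbegf in 22.1% and 45.5%, Cd55 in 67.7% and 31.5%, and Clic5 in 1.23% and 0.274%. The 157 had a median of 37677 UMIs, against 15615 and 12064 in kept fibroblasts, so these shares are not at equal depth. The other lining markers are not listed for the 157. Whether some of the 157 are doublets was not tested, and since all came from 1 library, library and cell type cannot be told apart.

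Over all barcodes of the synovium Prg4 had 166 CPM in the TNF- library and 918 CPM in the TNF+ library, a log2 ratio of 2.47 (95% interval 2.44 to 2.49). Over kept cells only it was at 171 and 213 CPM, a log2 ratio of 0.31 (0.27 to 0.35). The higher level of lubricin transcripts in the TNF+ synovium thus rested on the barcodes over the limit. Cemip was higher by either count, at 0.387 and 22.3 CPM over all barcodes (5.85) and 0.433 and 8.93 CPM over kept cells (4.37). Has1 was lower by either count, with log2 ratios of -1.14 and -1.21. All intervals here and below cover counting error only, and say nothing of how mice or preparations vary.

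Over kept synovial cells, 2 of the 10 members were at least 2-fold higher in the TNF+ library (Cemip and Cemip2) and 3 at least 2-fold lower (Has1, Has2 and Has3). Among all 19255 genes with at least 20 UMIs over both libraries, 11.8% were that much higher and 21.9% that much lower. Scaled to the median gene, whose log2 ratio was -0.17, the split was 4 higher (Hyal1 and Hyal2 in addition) and 3 lower. All 3 hyaluronan synthases were lower in the whole tissue under either scaling. Has1 went from 331 CPM in the TNF- library to 143 CPM in the TNF+ library, and Has2 from 70.8 to 12.7 CPM (log2 ratio -2.48, -2.63 to -2.34). Has3 rested on 120 and 23 UMIs. Both depolymerases were higher: Cemip with 33 and 295 UMIs, and Cemip2 at 27.1 and 62.1 CPM (1.19). In such sums over a tissue, fewer cells of a type and less RNA per cell cannot be told apart, and fibroblasts made up 3084 of the 6200 TNF- and 365 of the 3152 TNF+ cells, while myeloid cells numbered 622 and 1109.

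The source of each transcript was next read from the classes. Fibroblasts held 69.7% of TNF- and 61.7% of TNF+ Prg4 UMIs, and tendon-like cells held 27.2% and 33.6%. Fibroblasts also held 96.1% and 89.6% of Has1 UMIs, 97.8% and 79.5% of Has2 UMIs and 92.8% and 90.3% of Tnfaip6 UMIs. Over kept cells lubricin was thus shared between fibroblasts and tendon-like cells, whereas Has1, Has2 and Tnfaip6 came mainly from fibroblasts. With no limit on cells, fibroblasts held 41486 and tendon-like cells 2575 of the 44500 TNF+ Prg4 UMIs. In the TNF- library they held 10292 and 4208 of 15037. Cd44 moved between classes: fibroblasts held 44.6% of its UMIs in the TNF- and 18.8% in the TNF+ library, and myeloid cells 37.3% and 65.7%. The hyaluronidases did likewise, since the myeloid share went from 8.16% to 51.8% of Hyal1 UMIs and from 1.90% to 40.8% of Hyal2 UMIs. The cell numbers of these classes differed between the libraries in the same direction. Has3 was split in the TNF- synovium, with 42.5% in fibroblasts and 39.2% in endothelium.

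**Figure D2:**
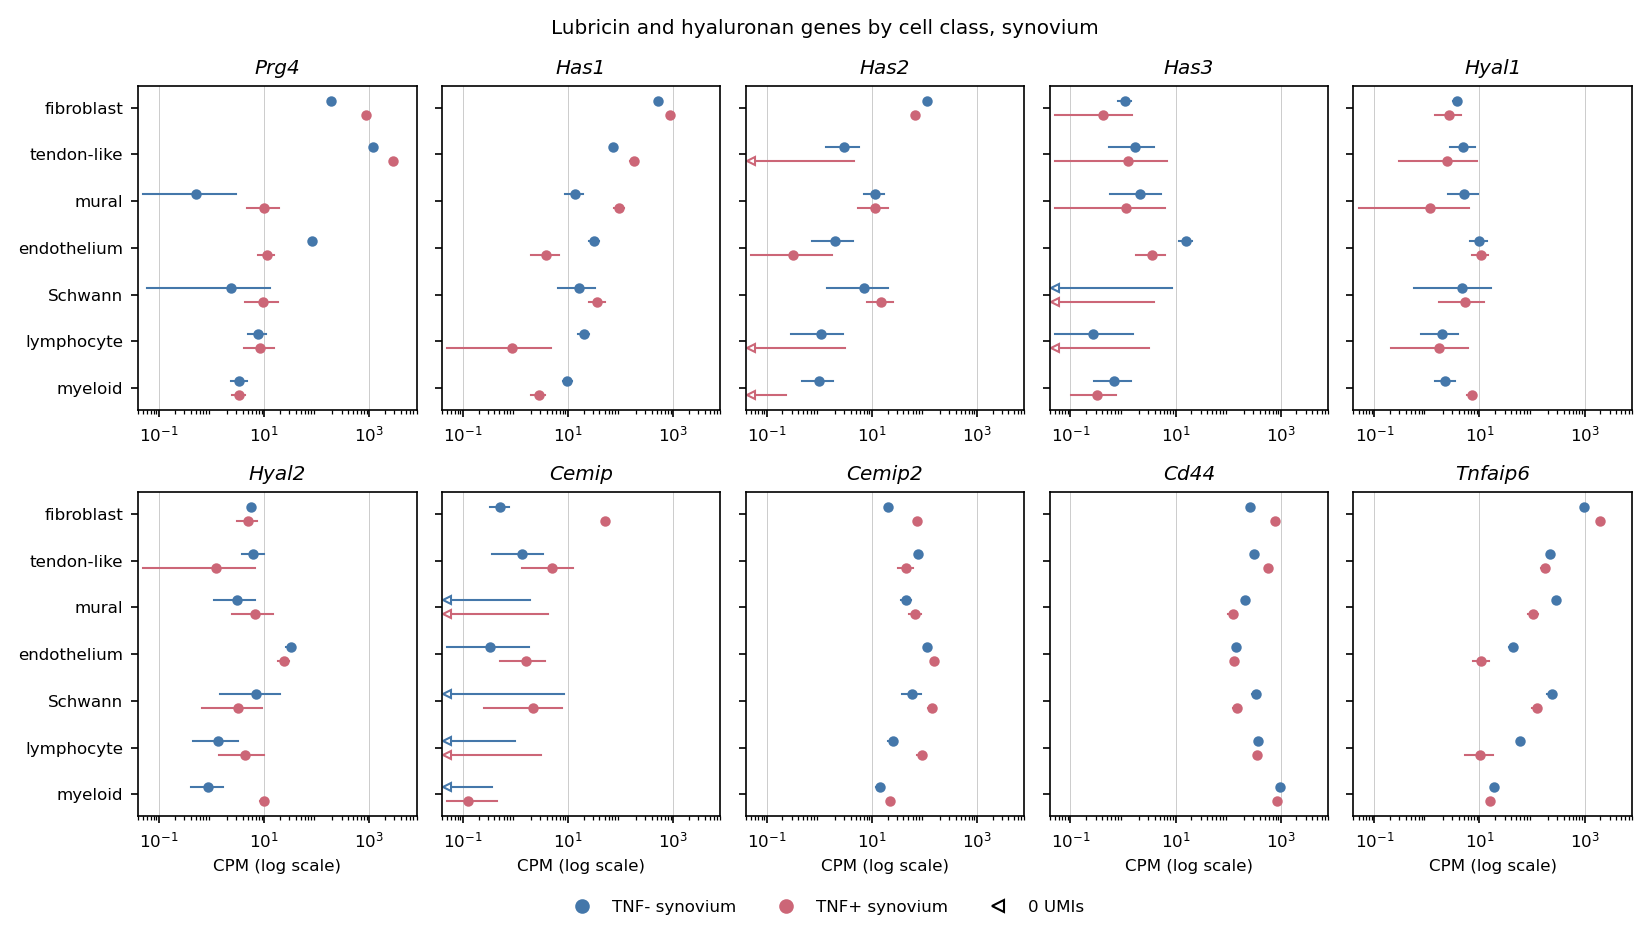
CPM (log scale) of each member by cell class in the TNF- and TNF+ synovium, kept cells. Bars are 95% counting intervals and an open triangle marks 0 UMIs. Prg4 is highest in tendon-like cells of both libraries (1177 and 2911 CPM), and Has1 and Tnfaip6 are highest in fibroblasts.

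In fibroblasts 5 of the 10 members were at least 2-fold higher in the TNF+ library (Prg4, Cemip, Cemip2, Cd44 and Tnfaip6) and 1 at least 2-fold lower (Has3). Of 16282 genes in these cells 9.07% were that much higher and 21.7% that much lower. The median log2 ratio was 0.91 over the members and -0.27 over all genes. The clusters that hold the class differed: TNF- fibroblasts were mostly in clusters led by Cxcl14 and Smoc2, by Gdf10 and by Pi16, and TNF+ fibroblasts in a cluster led by Saa3, Mmp13 and Cxcl5 (163 TNF+ and 0 TNF- cells) and in the Gdf10 cluster. Saa3 and Hp are acute-phase genes and Cxcl5 a neutrophil chemokine, and a cluster from 1 library may be that library and not a type.

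Prg4 was at 191 CPM (95% interval 188 to 195) in TNF- and 883 CPM (857 to 910) in TNF+ fibroblasts, a log2 ratio of 2.21 (2.15 to 2.26). Its distribution was uneven, as the median fibroblast held 0 Prg4 UMIs in both libraries and the highest 5% of cells held 64.0% and 58.4% of the UMIs. With each cell thinned to 1000 UMIs, Prg4 was found in 9.38% of 3069 TNF- and 21.5% of 354 TNF+ fibroblasts, against 0% of 316 (allowing up to 1.16%) and 0.568% of 176 lymphocytes, which should lack it. Before thinning it was found in 25.6% and 43.8% of fibroblasts and in 4.10% and 3.89% of lymphocytes. Both fibroblast shares were above the lymphocyte level. Of the cells with at least 20 Prg4 UMIs, 126 of 206 in the TNF- library lay in the Gdf10 cluster and 56 in tendon-like cells, while of 82 in the TNF+ library 33 were tendon-like, 29 lay in the Saa3 Mmp13 cluster and 16 in the Gdf10 cluster.

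Among the synthases, Has1 had 510 CPM in TNF- fibroblasts and 862 CPM in TNF+ fibroblasts (0.76), so it was higher per fibroblast transcript and lower in the whole tissue. Has2, the synthase essential in development, was at 111 and 67.8 CPM (-0.71). Has3 had 51 and 2 UMIs, and its interval, -4.48 to 0.53, spans no difference. Of the synthases, Has2 and Has3 thus had lower levels over all fibroblasts, neither with both a 2-fold ratio and an interval clear of 0. In the Cxcl14 Smoc2 cluster Has2 was at 85.7 and 89.1 CPM, and in the Gdf10 cluster at 61.9 and 68.3 CPM. It was therefore not lower within either. Without the Saa3 Mmp13 cluster the Has2 log2 ratio was -0.24 (-0.46 to -0.02).

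Among the genes that cut hyaluronan, Hyal1 was at 3.70 and 2.65 CPM and Hyal2 at 5.78 and 4.89 CPM in TNF- and TNF+ fibroblasts, and both intervals span no difference. Hyal1 overlaps Naa80 and Hyal3 on the same strand, so its counts are uncertain here and in every class below. Cemip, a secreted depolymerase, had 24 UMIs in TNF- and 255 in TNF+ fibroblasts (0.504 and 51.9 CPM, log2 ratio 6.69), and all 255 were in the Saa3 Mmp13 cluster. Its membrane-bound relative Cemip2 was at 20.03 and 71.3 CPM (1.83, 1.65 to 2.01). The depolymerases were therefore the members with higher levels in this role, Cemip in the 1-library cluster and Cemip2 across clusters.

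Cd44, the hyaluronan receptor, had 255 CPM in TNF- fibroblasts and 789 CPM in TNF+ fibroblasts (1.63, 1.58 to 1.68). Tnfaip6 was at 959 and 2004 CPM (1.06, 1.03 to 1.09). Both were higher in the TNF+ library. With no limit on cells (3296 TNF- and 543 TNF+ fibroblasts) Tnfaip6 fell short of 2-fold (0.97), Has1 was at 543 and 592 CPM (0.13), Cemip at 0.466 and 86.8 CPM (7.54), and Hyal2 at 5.59 and 7.40 CPM (0.40), the opposite direction. Without the Saa3 Mmp13 cluster (202 TNF+ fibroblasts left) the log2 ratio of Prg4 was 2.08, of Cemip2 1.57, of Has1 1.18, of Cd44 0.95 and of Tnfaip6 0.52, while Cemip was at 24 and 0 UMIs. So 3 members remained at least 2-fold higher or became so (Prg4, Has1 and Cemip2), and Cd44 and Tnfaip6 did not.

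**Figure D3:**
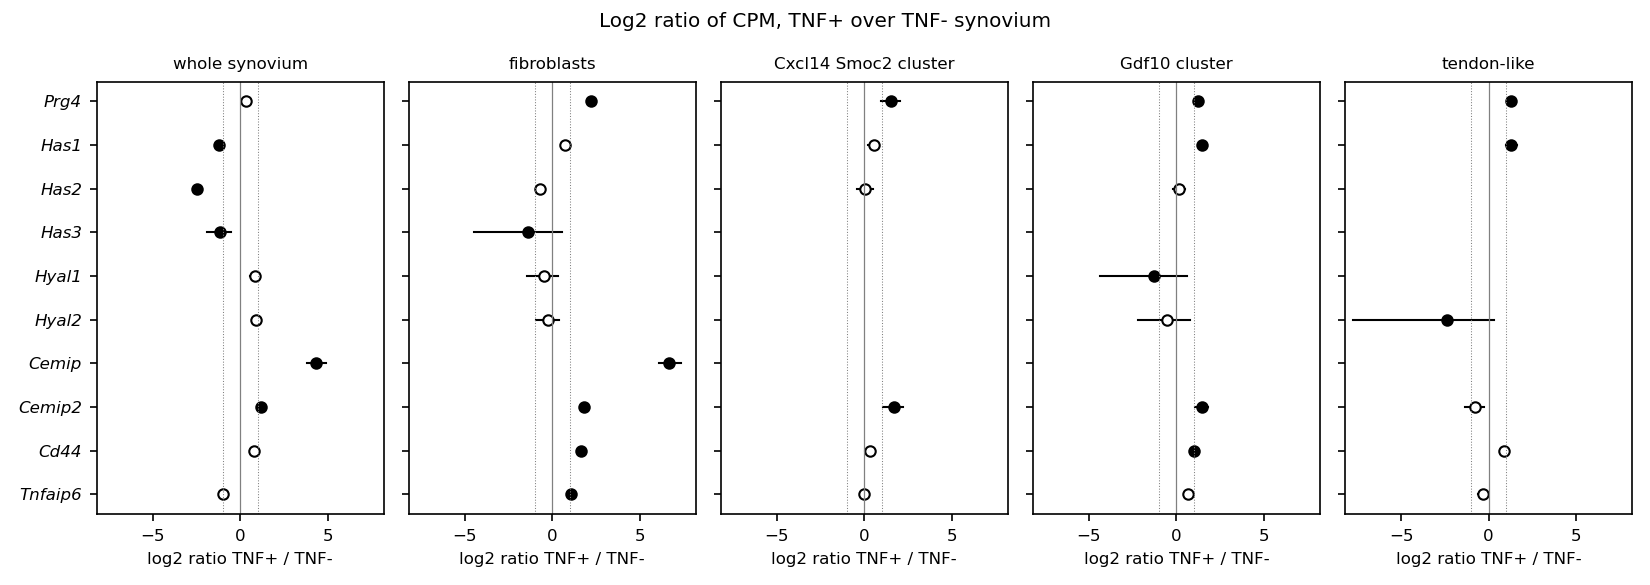
Log2 ratio of TNF+ over TNF- CPM for each member in the whole synovium, fibroblasts, 2 fibroblast clusters and tendon-like cells, with 95% counting intervals. Filled points pass 2-fold and open points do not, and dotted lines mark 1 and -1. Prg4 is at 0.31 in the whole synovium and at 2.21 in fibroblasts.

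Single clusters found in both libraries gave a smaller ratio than all fibroblasts for Prg4, Cemip2, Cd44 and Tnfaip6, and in the Gdf10 cluster a larger one for Has1. In the Gdf10 cluster (958 TNF- and 108 TNF+ cells) Prg4 was at 496 and 1149 CPM (1.21, 1.13 to 1.30) and Has1 at 451 and 1239 CPM (1.46, 1.37 to 1.54). There 4 of 8 members were at least 2-fold higher (Prg4, Has1, Cemip2 and Cd44) and 1 lower (Hyal1, with 60 and 2 UMIs and an interval of -4.38 to 0.62), against 5.48% and 14.6% of all genes. In the Cxcl14 Smoc2 cluster (1392 and 60 cells) 2 of 9 members were at least 2-fold higher, Prg4 at 23.0 and 66.2 CPM and Cemip2 at 21.4 and 68.5 CPM, and 0 lower, against 9.06% and 14.5%. Lubricin and Cemip2 were thus higher in both clusters by CPM, but the Cxcl14 Smoc2 values rested on few TNF+ cells. Its 60 TNF+ cells held 29 Prg4 UMIs in 6 cells and 30 Cemip2 UMIs in 13 cells. After thinning, Prg4 was found in 1.29% of its TNF- (0.77% to 2.04%) and 3.33% of its TNF+ cells (0.41% to 11.5%), and the intervals overlap. Cemip2 was found in 2.16% (1.46% to 3.06%) and 10% (3.76% to 20.5%), and these do not overlap. Tnfaip6 was at 670 and 669 CPM in the Cxcl14 Smoc2 cluster and at 846 and 1327 CPM (0.65) in the Gdf10 cluster. The Pi16 cluster had 16 TNF+ cells, too few to compare, and its 671 TNF- cells held the highest Has1 (1308 CPM), Has2 (228 CPM) and Tnfaip6 (1697 CPM) of the 3 TNF- clusters.

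Tendon-like cells, led by Chad, Fmod, Thbs4 and Tnmd, numbered 292 in the TNF- library, with Prg4 at 1177 CPM, and 69 in the TNF+ library, with Prg4 at 2911 CPM (1.31, 1.23 to 1.38). The median cell had 5 and 17 Prg4 UMIs. These cells had the highest lubricin level of any kept class in both libraries. Has1 was at 73.5 and 181 CPM (1.30, 0.99 to 1.61), and Cemip2 at 76.5 and 44.4 CPM (-0.79). Of the 147 TNF+ Has1 UMIs 4 cells held 63.3%, and with no cell limit the Has1 ratio was 0.91, short of 2-fold. Of 6 members 2 were at least 2-fold higher (Prg4 and Has1) and 1 lower (Hyal2, with 19 and 1 UMIs and an interval of -7.73 to 0.30), against 4.61% and 15.8% of genes. With no cell limit Prg4 was at 1049 and 2607 CPM in tendon-like cells (1.31) and at 192 and 3567 CPM in fibroblasts, so in the TNF+ library the order of these classes turned.

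Synovial myeloid cells held both hyaluronidases at higher levels in the TNF+ library, though in each library Hyal2 was higher in endothelium (values below). Hyal2 had 9 UMIs in TNF- and 156 in TNF+ myeloid cells (0.879 and 9.87 CPM, log2 ratio 3.49, 2.53 to 4.64). Hyal1 had 23 and 113 UMIs (2.25 and 7.15 CPM, 1.67, 1.01 to 2.38). They were the 2 of 7 members past 2-fold upward, with 1 downward (Has1, 9.77 and 2.78 CPM), against 8.73% and 21.3% of genes. Myeloid Has1 was below the level of lymphocytes in the TNF- library and above it in the TNF+ library (values below). In the TNF- myeloid cells 1 cell held 38 of its 100 UMIs. Cd44 was at 992 and 858 CPM (-0.21). TNF- myeloid cells were mostly dendritic (374 cells) and TNF+ cells mostly macrophages (1035 of 1109), in clusters led by Spp1 and Cxcl3 and by Lyz1 and Mmp12. In macrophages alone Hyal2 was at 1.35 and 10.4 CPM (2.94, 1.56 to 4.83), Hyal1 at 3.71 and 7.49 CPM (1.01) and Cd44 at 975 and 871 CPM.

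The other synovial classes held little of the matrix genes. In endothelium 4 of 8 members were at least 2-fold lower in the TNF+ library and 0 higher, against 9.89% and 7.11% of genes. These were Prg4 (83.2 and 11.2 CPM), Has1, Has3 (15.6 and 3.51 CPM) and Tnfaip6 (44.4 and 10.9 CPM). Hyal2, which is anchored on the endothelial surface, was at 32.5 and 24.0 CPM, and Cemip2 at 114 and 153 CPM. Lymphocytes give the level of stray transcripts: Prg4 was at 7.63 and 8.53 CPM there, and Has1 at 20.2 and 0.853 CPM. Tnfaip6 had 134 UMIs in 636 TNF- endothelial cells and 219 UMIs in 317 TNF- lymphocytes. Of 96 Has1 UMIs in TNF- endothelium, 32 cells held 86.5%. Of 251 Prg4 UMIs there, 32 cells held 70.5% and 1 cell held 46. Whether the endothelial Prg4, Has1 and Tnfaip6 are stray transcripts was not tested. The lower Has1 and Tnfaip6 in TNF+ lymphocytes (2 of 5 members, against 10.9% of genes) rested on few cells, since 1 TNF- cell held 50 of 74 Has1 UMIs and 2 held 76.3% of Tnfaip6 UMIs. Cemip2 was higher in lymphocytes (25.1 and 88.8 CPM, 1 of 5 members, against 8.57%). Mural cells had Has1 at 13.4 and 93.9 CPM (2.81, 2.16 to 3.50) and Tnfaip6 at 291 and 105 CPM (-1.46), 1 member of 5 in each direction against 5.25% and 20.6% of genes. TNF- mural cells were mostly in a cluster led by Abcc9 (227 of 291) and TNF+ mural cells in one led by Myh11 (92 of 125). Within the Myh11 cluster Tnfaip6 was at 87.5 and 93.7 CPM and no member was 2-fold lower, whereas Has1 was at 13.1 and 118 CPM (3.17). All 83 TNF+ Has1 UMIs lay in that cluster, and 7 cells held 88.0% of them. In Schwann cells Cemip2 was at 58.2 and 140 CPM and Cd44 at 342 and 150 CPM, and with Has1, of which 20 of 34 TNF+ UMIs were in 1 cell, 2 of 4 members were higher and 1 lower against 11.7% and 13.3%. Here too the main cluster differed, with 54 TNF- and 20 TNF+ Schwann cells in one and 14 and 213 in the other.

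The genes most alike in pattern were named by the correlation of log2(CPM + 1) over 29 sums of a class in a library, which is a description only because the sums share libraries and depth. Prg4 was followed by Comp (0.90), Mab21l2 (0.88), Thbs4 (0.88), Gm17455 (0.87) and Pitx1 (0.86). Comp and Thbs4 encode thrombospondin-family matrix proteins of cartilage and tendon. Has1 was followed by Tbx15 (0.93), Ccl11 (0.93), Tnfaip6 (0.92), Osr2 (0.91) and Uap1 (0.91), and Tnfaip6 by Col5a3 (0.94), Has1 (0.92), Ccl11 (0.90), Galnt17 (0.88) and Gfpt2 (0.88). Uap1 and Gfpt2 are enzymes of hexosamine synthesis, which supplies a precursor of hyaluronan.

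A list of 46 further genes of the pathway (precursor enzymes, hyaluronan-binding proteins, other receptors, heavy chains, lubricin regulators) was read in the same way. In fibroblasts 33 could be tested, 5 were at least 2-fold higher and 3 lower, against the shares of 9.07% and 21.7% given above. Higher were the proteoglycan Acan (3 and 255 UMIs, one of the genes leading the Saa3 Mmp13 cluster), the link protein Hapln1 (0.673 and 6.92 CPM), Itih2 (5.11 and 15.1 CPM), which encodes a heavy chain, Tgfb1 (28.7 and 83.7 CPM), a growth factor that raises lubricin, and Layn (17.5 and 39.3 CPM), a hyaluronan receptor. Lower were Itih4 (55 and 2 UMIs), the transcription factor Creb5 (447 and 183 CPM) and the receptor Tgfbr2 (245 and 122 CPM). None of the 9 enzymes that make the sugar precursors differed 2-fold over all fibroblasts. In the Cxcl14 Smoc2 cluster 3 of 30 listed genes were higher and 2 lower (9.06% and 14.5% of all genes), with 2 precursor enzymes higher and 1 lower. In the Gdf10 cluster 0 of 29 were higher and 3 lower (5.48% and 14.6%). All 8 lubricin regulators were tested and 0 were higher in either, so the higher Tgfb1 was not seen there. Of 16 hyaluronan-binding genes 6 and 5 could be tested, and 0 were higher. In synovial myeloid cells 5 of 28 were higher and 7 lower, against 8.73% and 21.3% of all genes, so the lower share was near that of all genes. They include the scavenger receptor Stab1 (17.5 and 54.3 CPM), the proteoglycan Vcan (36.4 and 108 CPM) and the hyaluronan receptor Lyve1 (32.3 and 1.20 CPM).

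In the lung these genes were, but for Cd44, lower in the TNF+ library or sparse. Of the 10 members 0 were at least 2-fold higher over all kept cells and 7 at least 2-fold lower, against 5.79% and 25.5% of 19510 genes. The median log2 ratio was -1.14 over the members and -0.32 over all genes, and scaled to that median gene the split was 1 higher (Cd44) and 4 lower (Prg4, Hyal1, Hyal2 and Cemip2). Prg4 is in both counts of lower members, but 296 of its 410 TNF- UMIs lay in 3 macrophages. Cemip2 had 246 CPM in the TNF- lung and 20.3 CPM in the TNF+ lung (-3.60) and Hyal2 at 49.1 and 5.55 CPM (-3.15). Both were mainly endothelial transcripts in the TNF- lung, where endothelium held 82.6% of Cemip2 UMIs and 81.4% of Hyal2 UMIs. Endothelial cells numbered 1895 in the TNF- and 126 in the TNF+ lung, and myeloid cells 957 and 5192. Within endothelium Cemip2 was at 854 and 400 CPM (-1.09, -1.22 to -0.97), the 1 member of 4 past 2-fold downward, with 0 upward, against 9.18% and 8.9% of genes, and Hyal2 was at 168 and 145 CPM. These values compare different clusters, since TNF- endothelium was mostly in a cluster led by Glp1r (1419 TNF- and 3 TNF+ cells) and TNF+ endothelium in one led by Prnd (5 and 91), so cluster and genotype cannot be told apart.

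**Figure D4:**
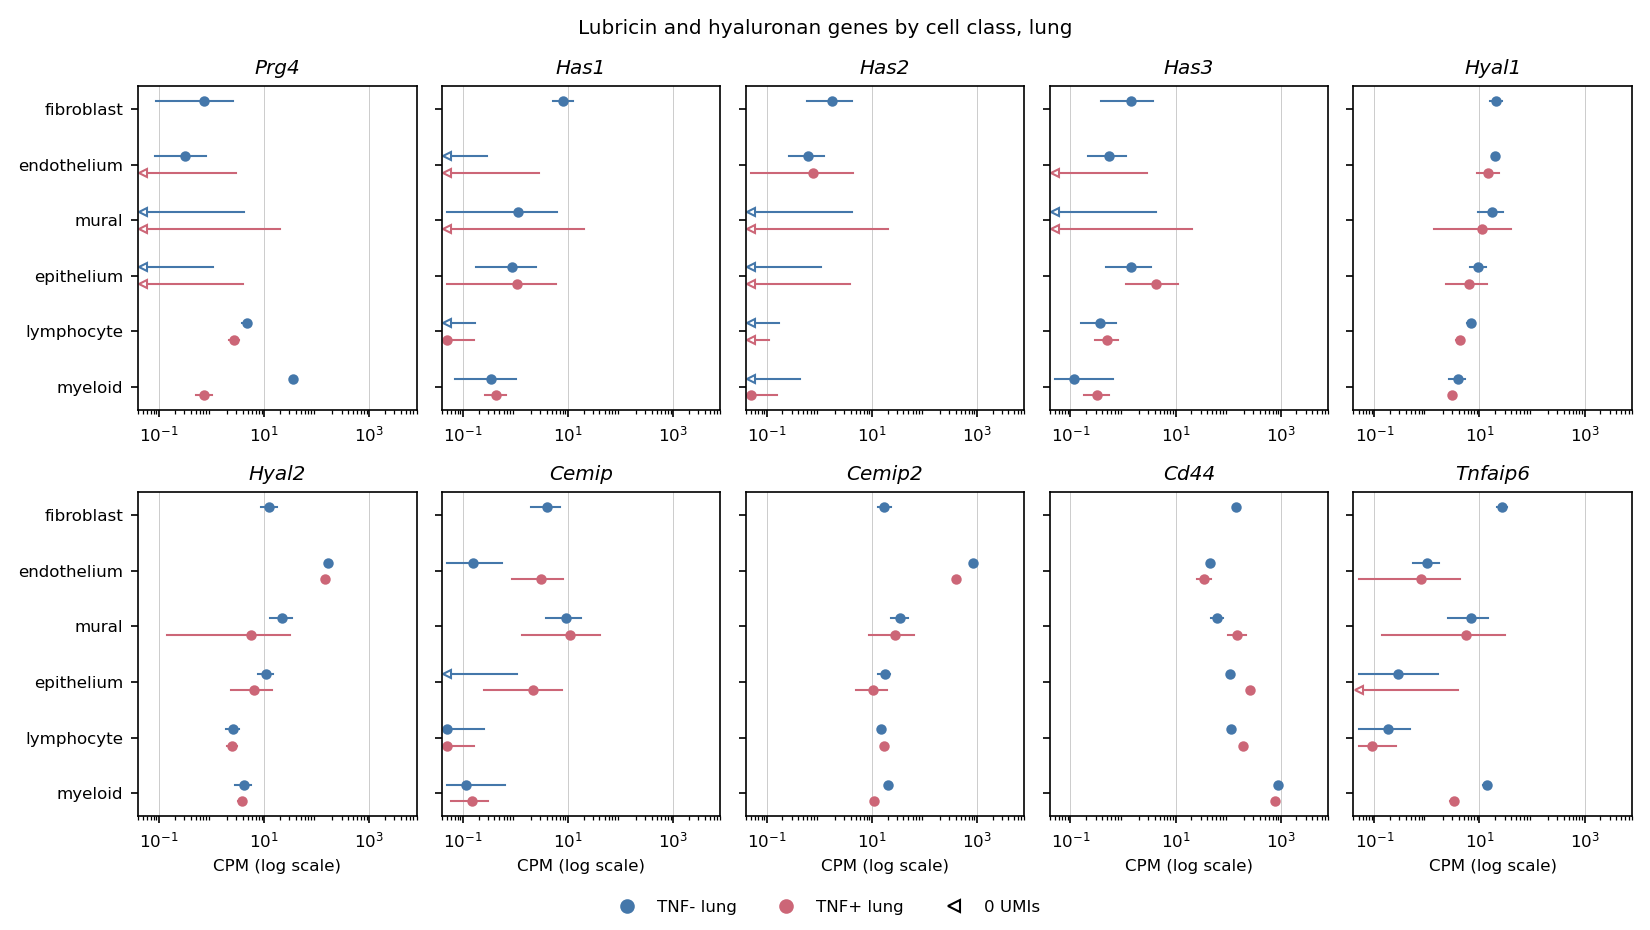
CPM (log scale) of each member by cell class in the TNF- and TNF+ lung, kept cells, with 95% counting intervals and open triangles for 0 UMIs. Cemip2 and Hyal2 are highest in endothelium, and of the named classes myeloid cells have the highest Cd44.

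Cd44 was at 269 and 535 CPM over the whole lung (0.99), and myeloid cells held 51.8% and 81.3% of it. Per myeloid transcript it was at 876 and 786 CPM (-0.16). The whole-lung difference was therefore not seen within the class that held most of the transcript. T cells had Cd44 at 132 and 276 CPM (1.06, 0.97 to 1.16), the 1 of 5 members past 2-fold there, with 0 downward, against 6.62% of genes higher and 7.19% lower. Epithelium had it at 109 and 260 CPM (1.26), the 1 of 4 members past 2-fold, against 11.8% higher and 7% lower. Mural cells had it at 62.5 and 150 CPM (1.27), 1 of 3 members, with 1 lower (Hyal2, 19 and 1 UMIs, an interval that spans no difference), against 7% higher and 13.3% lower. These groups were held by different clusters in the libraries. Most TNF- T cells were in a cluster led by Dapl1 and Lef1 (615 TNF- and 14 TNF+ cells), and most TNF+ T cells in a cluster led by Il23r and Ccr4 (228 and 840) and another led by Gm14085 and Dapl1 (13 and 393). In the T cell clusters found in both libraries Cd44 was at 371 and 400 CPM (0.11, Il23r Ccr4 cluster) and at 177 and 261 CPM (0.56, a cluster led by Gzmk), so the 2-fold call was not seen within them. Mural cells were mostly in a cluster led by Actc1 (100 and 13 cells) in the TNF- lung and in one led by Tafa1 (18 and 77) in the TNF+ lung, and the largest TNF+ epithelial cluster, led by Chil1 and Lcn2, held 10 TNF- and 60 TNF+ cells.

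Lubricin and TSG-6 were low in the lung. Prg4 had 410 UMIs in the TNF- and 124 in the TNF+ lung, and in myeloid cells 300 and 34, of which 296 TNF- UMIs lay in 3 cells of 1 macrophage cluster. Its myeloid log2 ratio of -5.59 thus came from 3 cells. Tnfaip6 was at 13.9 and 3.23 CPM in myeloid cells (-2.10), the other of 2 lower members of 7, with 0 higher, against 14.4% and 4.77% of genes, but at 72.9 and 62.3 CPM in neutrophils and 1.82 and 1.85 CPM in macrophages. Neutrophils numbered 301 and 176 and macrophages 543 and 4746. Has1 had 37 and 28 UMIs over the whole lung, Has2 15 and 15, Has3 26 and 36 and Cemip 27 and 18, too few to compare within most classes. Lung fibroblasts numbered 247 in the TNF- and 40 in the TNF+ library, under the 50 cells set for a comparison, and held Cd44 at 141 and 453 CPM, Tnfaip6 at 27.1 and 31.9 CPM and Has1 at 8.21 and 17.7 CPM. Prg4 was at 0.714 CPM in TNF- and at 0 UMIs in TNF+ lung fibroblasts, which allows up to 13.1 CPM.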

How the data were processed

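Single cells of lung and synovium were captured with the 10x Genomics 3′ kit from pooled mice, 1 library per genotype and tissue. The authors deposited raw UMI counts per gene and barcode, made with Cell Ranger 7.0.1 on mouse build mm10 per the submitters' processing notes, and gave no cell annotation. Counts were used as deposited.

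The members and gene lists were chosen with earlier results of these data known. The marker naming thresholds, the promoter patterns and the alternative without the 1-library cluster were set after the data were seen. Barcodes with 200 to 5000 genes and at most 20% mitochondrial UMIs were kept. Doublets were left in, and as an alternative the top Scrublet scores were removed (0.8% per 1000 barcodes, which is 342, 107, 479 and 825 cells in the TNF- synovium, TNF+ synovium, TNF- lung and TNF+ lung). Cells were scaled to 10000 UMIs and log-transformed. From each tissue 2000 variable genes, without the 10 members and the 46 pathway genes, gave 30 principal components, 20 neighbours and Leiden clusters at resolution 0.8 (scanpy 1.11.5, leidenalg 0.10.2, scikit-learn 1.9.0, numpy 2.4.6, scipy 1.17.1, matplotlib 3.10.9, Python 3.11.15). The synovium gave 28 clusters and the lung 37, of which 11 and 17 had over 90% of cells from 1 library. Clusters were named from 305 markers of 21 cell types. A name needed at least 5 markers (3 for lining) 2-fold above the other clusters and in at least 10% of cells. A cluster stayed unnamed if its top 10 genes held more markers of another class. It also stayed unnamed if it was shallow and its top 10 genes held no marker of its type. An unnamed synovial cluster (256 TNF- and 280 TNF+ cells) met 19 fibroblast markers. An unnamed lung cluster (192 and 63 cells) met 16. Their cells are not in the fibroblast counts and ratios, so a class may differ from that of the study. Of synovial cells 331 TNF- and 479 TNF+ stayed unnamed, and of lung cells 704 and 134.

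UMIs were summed per class and library and divided by all UMIs as CPM. CPM has an exact Poisson interval, a share of cells a Clopper-Pearson interval and a log2 ratio a conditional exact binomial interval, all at 95% and for counting error only. With 1 library per group no test was run. A ratio needed 50 cells in each library. A gene was counted as different with at least 20 UMIs over both libraries and a ratio of at least 2-fold. A count of 0 was set to a floor of 3 UMIs. Shares of cells were taken after thinning to 1000 UMIs. Likeness used genes with at least 200 UMIs. The rule for named genes was all 10 members, the 5 genes most alike to Prg4, Has1 and Tnfaip6, and up to 8 pathway genes per comparison by size of ratio. Positions come from GENCODE vM21. Ratios were tested on simulated data.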

Additional observations from a re-analysis of the deposited data

Results flagged for a closer look

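By UMI sums over kept cells, both hyaluronan depolymerases differed in opposite directions in the tissues. The log2 ratio of Cemip was 4.37 in the whole synovium and -1.23 in the whole lung, and that of Cemip2 was 1.19 in the whole synovium and -3.60 in the whole lung. With 1 library per group the difference between the tissues was not tested. Cemip rested on 27 and 18 UMIs in the TNF- and TNF+ lung. There it fell short of 2-fold lower when scaled to the median gene, and its direction turned with each cell weighted equally. The number of endothelial cells, which hold most lung Cemip2, went from 1895 to 126, and its part in the lung ratio was not tested.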

How the results depend on the processing

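The log2 ratio of Prg4 in synovial fibroblasts was 2.21, and it was 2.05 with doublets removed, 2.48 scaled to the median gene, 4.22 with no limit on cells and 2.08 without the 1-library cluster. With no limit and without the lining-like cluster it was 1.58 (1.48 to 1.67). The fibroblast share of Prg4 UMIs in the TNF+ synovium (61.7%) was 58.2% with doublets removed, 63.2% with each library clustered by itself, 93.2% with no limit and 63.8% with stricter limits (500 to 5000 genes, at most 10% mitochondrial UMIs). In the TNF- synovium (69.7%) it was 70.9%, 67.2% and 68.4% in the first 3 of these. Members past 2-fold went from 6 to 3 in synovial fibroblasts without the 1-library cluster, and from 7 to 3 in the whole lung with doublets removed. The direction turned for Cemip in the whole lung with each cell weighted equally (1.45) and for Prg4 in lung myeloid cells with doublets removed (0.38), where the cells removed include the 3 that held 296 UMIs; the cause of the other changes was not tested. Of the other values 287 stayed within their intervals (for counts of members, within 1.5 times) and 86 moved without turning a called direction. Lung fibroblasts reached 50 cells with no limit on cells (433 and 62), with Has2 at 8.91 and 22.9 CPM and Cd44 at 161 and 343 CPM, and with each library clustered by itself (428 and 194), with Has2 at 6 and 12 UMIs and Cd44 at 135 and 315 CPM. No ratio of lining-like fibroblasts could be given, since no TNF- cells were in a cluster that met the lining rule under any setting. That rule leaves out Prg4, which is a member, and covers fibroblast clusters only. The study used Prg4 as its lining marker and reported lining and sub-lining fibroblasts for both TNF- and TNF+ mice, so the absence here belongs to the rule used. No paired analysis was possible because each group has 1 library.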

Other observations

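A shallow synovial cluster that stayed unnamed (256 TNF- and 280 TNF+ cells, median 2460 UMIs), led by Ctsk, met 19 fibroblast markers. It held Prg4 at 21.6 CPM in its TNF- cells and 152 CPM in its TNF+ cells. In it Tnfaip6 was at 712 and 219 CPM (log2 ratio -1.70), Cd44 at 378 and 789 CPM, and Cemip at 0 and 17.5 CPM. Epithelial cells of the TNF+ synovium (178 cells, against 2 in the TNF- library) held Has2 at 14.2 CPM and Cd44 at 216 CPM. Synovial dendritic cells had Cd44 at 919 CPM (TNF- cells) and 397 CPM (TNF+ cells), a log2 ratio of -1.21. Synovial neutrophils, with 27 and 23 cells too few to compare, had Cd44 at 3561 and 2242 CPM. In lung myeloid cells, 2 of 29 genes of the pathway list were at least 2-fold higher in the TNF+ library, the heavy chain gene Itih4 (0.467 and 7.11 CPM) and the receptor Layn (1.63 and 18.0 CPM), and 5 were lower, among them Lyve1 (9.33 and 0.771 CPM) and Vcan (32.7 and 6.36 CPM), against 4.77% and 14.4% of all genes. The largest TNF- myeloid cluster was led by F13a1 and Vcan (411 TNF- and 106 TNF+ cells). The largest TNF+ one was led by Ccdc192 and Hsd17b2 (15 and 2783 cells). These genes were not compared within those clusters.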
